A study of Homo sapiens with 6 samples.

Results

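The plasminogen activation system and its coagulation counterparts were examined in SiHa PR cells, through 9 genes chosen by symbol among the 60664 genes of the count table: PLAU, PLAUR, PLAT, SERPINE2, PLGRKT, F3, TFPI, TFPI2 and THBD. All 9 were found in the table by their Ensembl identifiers. SiHa is an established human cervical carcinoma line, and PR marks the parental cells of a lymph node-metastatic derivative. The control group was 3 libraries named only SiHa PR, and the other group was 3 libraries of SiHa PR cells overexpressing P4HA3, a collagen prolyl 4-hydroxylase subunit. The study cloned P4HA3 cDNA into a lentiviral vector. A doxycycline-inducible construct is also described, and which of them the sequenced cells carried is not stated. Whether these cells were a pool or 1 clone, and whether the 3 libraries of a group came from separate cultures, is not given in the sources used here, so the spread between libraries may be technical.

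Plasminogen is a circulating zymogen that urokinase (uPA, encoded by PLAU) and tissue plasminogen activator (tPA, PLAT) cleave to plasmin, a protease of fibrin and matrix proteins. Tumour cells concentrate this reaction at their surface through the urokinase receptor uPAR and other plasminogen-binding proteins, and serpins shut it off. Tissue factor (F3) starts the opposite process, the formation of fibrin, and is restrained by TFPI, while thrombomodulin (THBD) turns thrombin towards anticoagulation.

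The libraries held between 21773488 and 24939948 counts each. P4HA3 itself, which checks the labels, was counted 62 to 93 times per control library and 44775 to 49097 times per overexpressing library. Epithelial markers were present, with KRT8, KRT18 and KRT17 abundant and a summed level of 7 markers of 7400 to 8520 CPM (counts scaled to TMM-normalised library size) in control libraries and 6260 to 7300 CPM with P4HA3. KRT5 had at most 4 counts. Although the deposited growth protocol speaks of uterine tissue, the smooth muscle markers CNN1 and LMOD1 had at most 3 counts, MYH11 at most 9 and DES at most 8. SYNPO2 had 7 to 16 counts. TAGLN, also on the smooth muscle list, had 195 to 220 counts in control libraries and 379 to 427 with P4HA3, and the summed level of the 7 smooth muscle markers was 9.65 to 10.9 CPM in control libraries and 17.4 to 20.4 CPM with P4HA3. ACTG2 stood apart: it had 30, 40 and 44 counts in control replicate 3 and P4HA3 replicates 1 and 3, and at most 1 count in the other 3 libraries. Of the endothelial markers, CDH5, VWF, KDR and CLDN5 had at most 3 counts and PECAM1 between 30 and 73. PTPRC, the pan-leukocyte marker, had at most 1 count, whereas CD14 had 789 to 2406. All 6 fibroblast markers were detected in both groups (summed level 184 to 194 CPM in control libraries and 144 to 185 CPM with P4HA3). In bulk RNA, a difference in the number of cells of a type and in RNA per cell cannot be told apart.

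Sequence before RefSeq starts of the 3 genes that changed is shown here as a description. Whether it bears on their changes was not tested. RefSeq promoter windows of GRCh38.p14 were read for 7 of the 9 genes. The first line gives the 250 bases before the start of F3 on the minus strand (chr1:94541760-94542009), the second the 250 bases before 1 of the 2 RefSeq starts of SERPINE2 on the minus strand (chr2:224031479-224031728), and the third 27 bases upstream of PLAUR on the minus strand (chr19:43670339-43670365). Capitals mark the AP-1 letters TGANTCA in F3 and PLAUR, and the CCAAT box or its reverse complement ATTGG in SERPINE2.
F3: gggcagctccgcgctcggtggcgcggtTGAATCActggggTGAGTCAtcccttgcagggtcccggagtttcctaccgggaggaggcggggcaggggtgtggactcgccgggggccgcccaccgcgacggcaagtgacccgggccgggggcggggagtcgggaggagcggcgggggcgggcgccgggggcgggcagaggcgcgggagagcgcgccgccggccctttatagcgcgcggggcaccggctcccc
SERPINE2: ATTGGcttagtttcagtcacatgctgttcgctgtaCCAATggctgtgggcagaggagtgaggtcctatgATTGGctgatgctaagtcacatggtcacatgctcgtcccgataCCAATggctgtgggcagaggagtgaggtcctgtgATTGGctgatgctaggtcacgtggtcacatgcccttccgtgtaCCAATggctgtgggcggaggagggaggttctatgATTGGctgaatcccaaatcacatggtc
PLAUR: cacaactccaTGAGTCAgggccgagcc
The AP-1 letters, which read as TGANTCA on both strands, occurred 2 times upstream of F3, beginning 223 and 210 bases before the start, and once upstream of PLAUR, beginning 186 bases before its start. They were held by 6.57% of 35116 RefSeq windows of the same length, and by 1 other of the searched genes, TFPI2. The SERPINE2 window held the CCAAT letters 7 times over both strands, against at least 1 match in 32% of all windows, while the window of its other RefSeq start held none. The printed window belongs to an internal start, 7840 bases from the GENCODE start of the gene, and the other start lies 678 bases from it. The SERPINE2 stretch is repetitive, and the matches recur with the repeat. F3 also had a GC box (GGGCGG, either strand) 4 times and TATAAA on the reverse strand beginning 28 bases before the start. GGGCGG was held by 42.6% and TATAAA by 10.7% of windows. The GC box also occurred in both SERPINE2 windows (1 and 2 times), in TFPI2 (2) and in a PLAU window (3). CCAAT letters also occurred in PLGRKT (2 times) and in the other PLAU window (1). The F3 window overlaps exons of a long noncoding RNA on the other strand by 73 bases, and the PLAUR stretch lies in the first exon of a longer PLAUR transcript. These matches are letters only. F3 and PLAUR both carry TGANTCA, and binding at these letters was not tested.

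Because the 9 genes were listed with results of these libraries in view, their differences between groups are given as a description and support nothing by themselves. With P4HA3 overexpression, SERPINE2 rose 1.72-fold and F3 rose 1.46-fold, while PLAUR fell to 0.798 of control. PLAU, PLGRKT, TFPI and THBD did not pass the threshold, and PLAT and TFPI2 were too low to test. Thus 3 of the 7 tested genes (2 higher, 1 lower) had an adjusted p under 0.05 in edgeR's quasi-likelihood fit over all 15130 tested genes, in which 20.8% of genes were called (9.36% higher and 11.4% lower). The median log2 fold change of the 7 genes was -0.11, against 0.01 over all tested genes. Control and P4HA3 libraries did not overlap in 5 of the 7 genes, and in 40.1% of all tested genes.

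**Figure D1:**
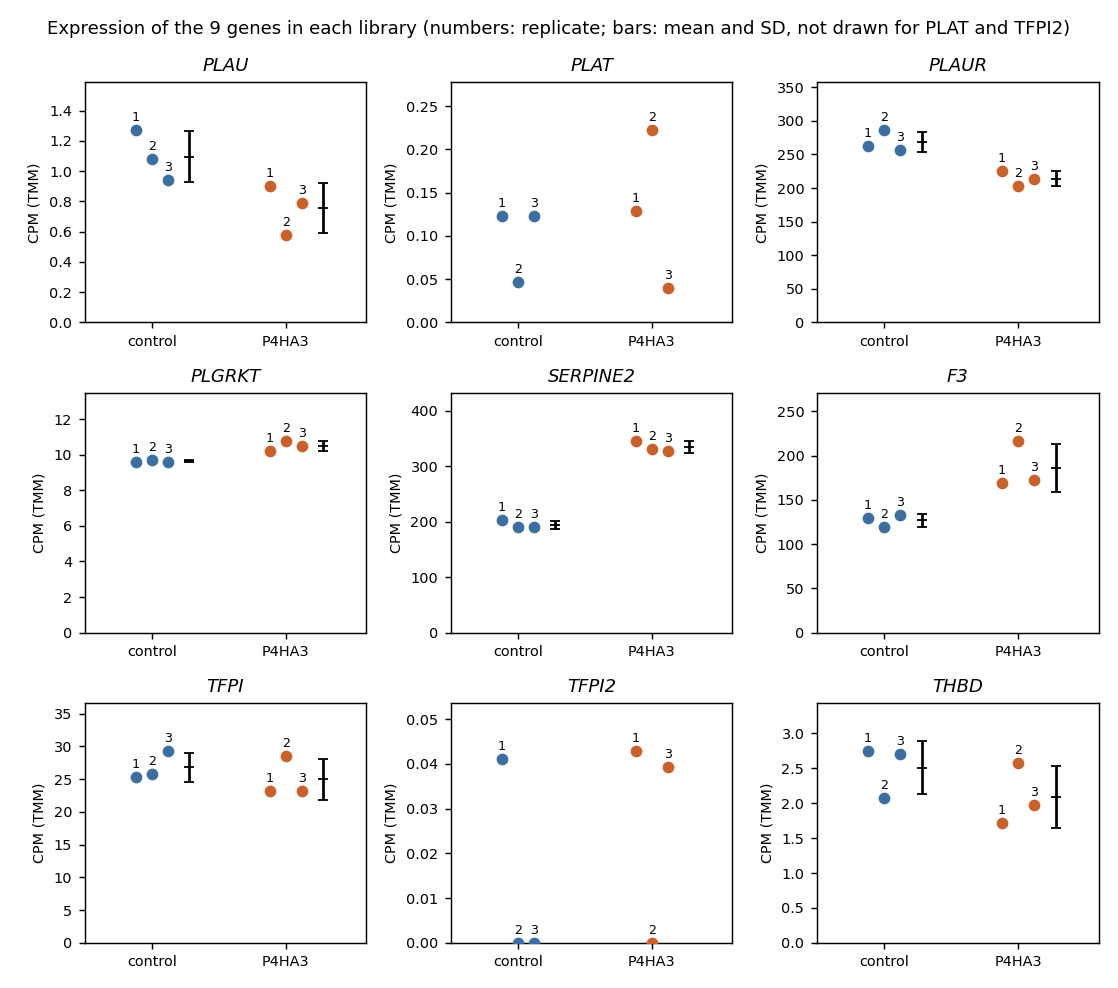
TMM-normalised CPM of each of the 9 genes (y axis, linear from 0) in the 3 control (blue) and 3 P4HA3-overexpressing (orange) libraries, numbered by replicate, with mean and SD drawn beside the points for all but PLAT and TFPI2. SERPINE2 lay between 190 and 203 CPM in control libraries and between 327 and 346 CPM with P4HA3, whereas the TFPI and THBD libraries of the groups overlapped.

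Among the activators, PLAU was barely expressed. This gene (ENSG00000122861, chromosome 10 of GRCh38, 73909177 to 73917496, plus strand) encodes urokinase. It had 31, 23 and 23 counts in control replicates 1, 2 and 3 and 21, 13 and 20 counts in P4HA3 replicates 1, 2 and 3. This corresponds to 1.10 ± 0.167 CPM in control cells and 0.756 ± 0.164 CPM with P4HA3 (SD, n = 3 each). All P4HA3 libraries lay below the lowest control library, but the highest of them, at 0.902 CPM, was close to it at 0.94 CPM. The log2 fold change of -0.53 had a standard error of 0.243 and did not pass the threshold. The antisense gene C10orf55 shares 915 exon bases with PLAU, 266 of them coding for urokinase, and the strand setting of the counting is not given. C10orf55 itself had at most 2 counts. PLAT (ENSG00000104368, chromosome 8, 42174718 to 42207709, minus strand), which encodes tPA, had 3, 1 and 3 counts in control replicates 1 to 3 and 3, 5 and 1 counts in P4HA3 replicates 1 to 3. The groups overlapped and no fold was computed. Plasminogen itself (PLG, named after its values were seen) had 0 counts in all 6 libraries, which allows at most 3 counts or 0.118 to 0.141 CPM per library. These limits cover counting error only.

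The transcript of the receptor was far more abundant than that of its ligand. PLAUR (ENSG00000011422, chromosome 19, 43646095 to 43670547, minus strand) encodes uPAR, the GPI-anchored receptor that holds urokinase at the cell surface. Its level was 263, 286 and 257 CPM in control replicates 1, 2 and 3 and 226, 203 and 213 CPM in P4HA3 replicates 1, 2 and 3. Every P4HA3 library was below every control library. PLAUR fell, at a log2 fold change of -0.33 and a standard error of 0.0631. The change was small: of the genes called as lower, 70.1% had a larger one. Per kb of transcript, PLAUR stood 425 ± 62.3 times above PLAU in control cells and 498 ± 91.5 times above it with P4HA3 (SD, n = 3 each), and the libraries of the groups overlapped in this ratio. PLGRKT (ENSG00000107020, chromosome 9, 5357971 to 5437925, minus strand) encodes a transmembrane plasminogen receptor with a C-terminal lysine. It was at 9.64 ± 0.0633 CPM in control cells and 10.5 ± 0.295 CPM with P4HA3 (SD, n = 3 each). Its groups did not overlap, yet the log2 fold change of 0.12 (standard error 0.0869) was not called.

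SERPINE2 had the largest log2 fold change of the 7 tested genes. It encodes protease nexin-1, a serpin of the extracellular matrix and cell surface that inhibits thrombin, urokinase, tPA and plasmin (ENSG00000135919, chromosome 2, 223975045 to 224039318, minus strand). Its level was 203, 190 and 190 CPM in control replicates 1, 2 and 3 and 346, 330 and 327 CPM in P4HA3 replicates 1, 2 and 3. The lowest P4HA3 library was well above the highest control library, and replicates of a group differed little. The log2 fold change was 0.78 with a standard error of 0.0551, and 4.94% of the genes called as higher had a larger one.

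Tissue factor rose as well. F3 (ENSG00000117525, chromosome 1, 94529173 to 94541759, minus strand) encodes the membrane receptor of factor VII that initiates coagulation. Its level was 129, 119 and 133 CPM in control replicates 1, 2 and 3 and 169, 217 and 172 CPM in P4HA3 replicates 1, 2 and 3. The groups did not overlap, and P4HA3 replicate 2 was the highest library. The log2 fold change was 0.55 (standard error 0.0927), and without P4HA3 replicate 2 it was 0.42. Of the genes called as higher, 11.9% had a larger change.

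Of the tissue factor pathway inhibitors, TFPI was not called and TFPI2 was too low to test. TFPI (ENSG00000003436, chromosome 2, 187464230 to 187565760, minus strand) encodes the Kunitz-type inhibitor of factor Xa and of the tissue factor-factor VIIa complex. Its level was 25.3, 25.8 and 29.3 CPM in control replicates 1, 2 and 3 and 23.2, 28.5 and 23.1 CPM in P4HA3 replicates 1, 2 and 3. The groups overlapped, and the log2 fold change of -0.11 (standard error 0.101) was not called. Within each library, the F3 level per kb was 8.56, 7.75 and 7.62 times that of TFPI in control replicates 1, 2 and 3 and 12.3, 12.8 and 12.5 times in P4HA3 replicates 1, 2 and 3. The 2 sets of ratios were apart. Exons of CALCRL-AS1 on the other strand overlap 118 noncoding bases of TFPI exons. CALCRL-AS1 had 9 to 42 counts, and how many reads fell in the shared bases was not tested. TFPI2 (ENSG00000105825, chromosome 7, 93885396 to 93890753, minus strand), a related Kunitz inhibitor that blocks plasmin and is often silenced in carcinoma, had 1 count in all control libraries together and 2 counts in all P4HA3 libraries together. This is too few to compare.

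THBD (ENSG00000178726, chromosome 20, 23045633 to 23049672, minus strand), the gene of the thrombin receptor thrombomodulin, was low. It had 67, 44 and 66 counts in control replicates 1, 2 and 3 and 40, 58 and 50 counts in P4HA3 replicates 1, 2 and 3. The groups overlapped, with 2.50 ± 0.381 CPM in control cells and 2.09 ± 0.443 CPM with P4HA3 (SD, n = 3 each). The log2 fold change of -0.27 (standard error 0.191) was not called.

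Ordered by level per kb of transcript in control cells, the genes ran from PLAUR (196 CPM per kb) through SERPINE2 (87.3), F3 (55.3), PLGRKT (9.83), TFPI (6.95), THBD (0.62), PLAU (0.468) and PLAT (0.0319) to TFPI2 (0.0062). The library ranges of neighbours in this order were apart except for THBD and PLAU and for PLAT and TFPI2. With P4HA3 the order was the same, but SERPINE2 reached PLAUR: 147 to 155 CPM per kb against 148 to 165 CPM per kb. The SERPINE2 level was 0.446 ± 0.0337 of the PLAUR level in control cells and 0.96 ± 0.0328 of it with P4HA3 (SD, n = 3 each, per kb).

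**Figure D2:**
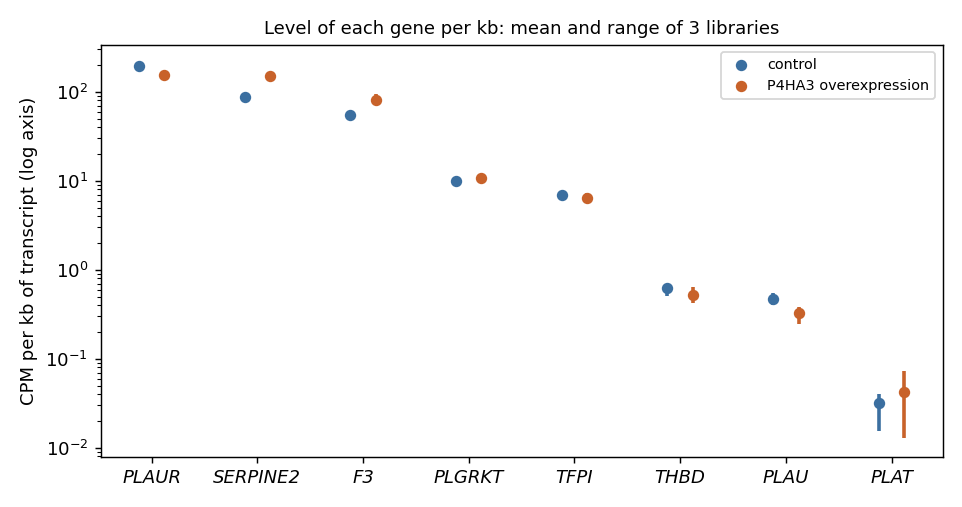
TMM-normalised CPM per kb of canonical transcript (y axis, log scale) for 8 of the genes, ordered by their control level, with the mean (point) and the range of 3 libraries (line) in control (blue) and P4HA3 (orange) cells. TFPI2, with counts of 0 in some libraries, is not drawn, and the SERPINE2 mean moves from 87.3 to 150 CPM per kb, next to PLAUR at 156.

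The libraries carried a trend with GC content that touches each of these values. Across 15107 genes the log2 fold change fell with the GC content of the canonical transcript (Spearman's rho -0.58, across genes of the same libraries and so no count of replicates). The median log2 fold change was 0.21 for genes between 27.8% and 42.4% GC and -0.2 for genes between 57.1% and 85.5%. TFPI has a GC content of 34.7%, F3 42.8%, SERPINE2 45.7% and PLAUR 55.9%, so the trend lay in the direction of the F3, SERPINE2 and PLAUR changes and against that of TFPI. After a smooth trend on GC content and transcript length was taken out of each library, SERPINE2 was at 0.74 (standard error 0.0424), F3 at 0.45 (0.0715) and PLAUR at -0.17 (0.0395) on the log2 scale, and all 3 were still called in the same direction. TFPI moved to -0.37 (standard error 0.0588) and was then called as lower. The PLAUR change therefore shrank by over 1.5 times, and the call on TFPI rests on this step. In that fit 4 of 7 tested genes were called (2 higher, 2 lower), against 18.6% of 15107 genes (10.6% higher, 7.96% lower). A real change tied to GC content or length would be taken out by the same step.

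**Figure D3:**
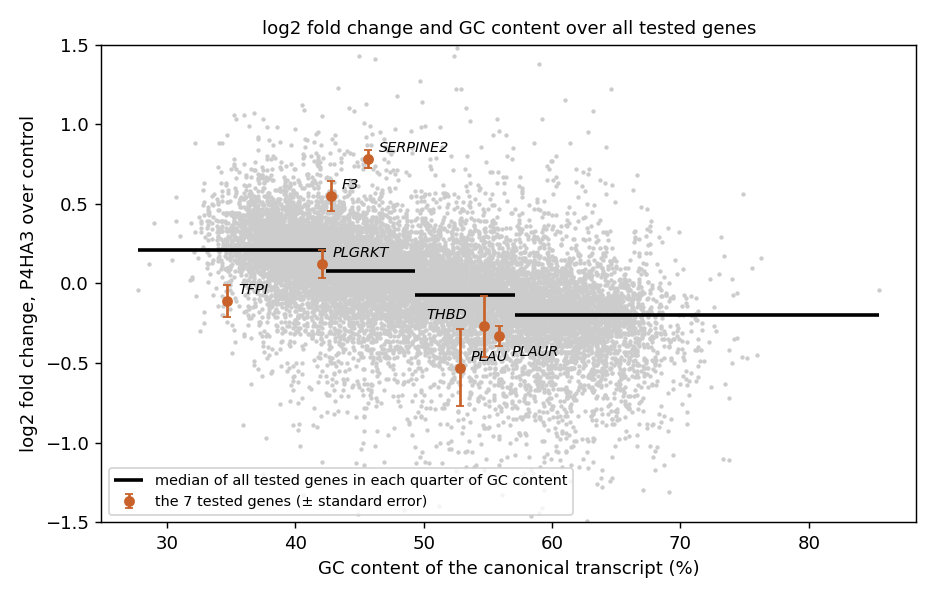
log2 fold change of P4HA3 over control (y axis) against the GC content of the canonical transcript in % (x axis) for all genes with both values (grey; 33 lie outside the drawn range of 1.5), with the median of each of 4 equally sized GC classes (black lines) and the 7 tested genes (orange, ± standard error). SERPINE2 and F3 lie above the black lines, and TFPI at 34.7% GC lies below the median of 0.21 of its class.

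The calls also rested on the libraries used. SERPINE2 was called as higher without any 1 of the 6 libraries, with a log2 fold change between 0.76 and 0.81. F3 (0.51) and PLAUR (-0.28) lost their calls without control replicate 2, at edgeR adjusted p of 0.0506 and 0.0554. This left 1 of 7 genes called. Over all genes, 534 of 15380 were called in that fit, against 3147 of 15130 with all 6 libraries. F3 and PLAUR kept their calls without any other single library, with extremes of 0.424 and 0.612 for F3 and of -0.365 and -0.291 for PLAUR. Using only the 3 libraries with an ACTG2 count of at most 1 (control replicates 1 and 2 and P4HA3 replicate 2), the same 3 genes were called in the same directions, while TFPI (0.165) and THBD (0.096) changed sign without a call.

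**Figure D4:**
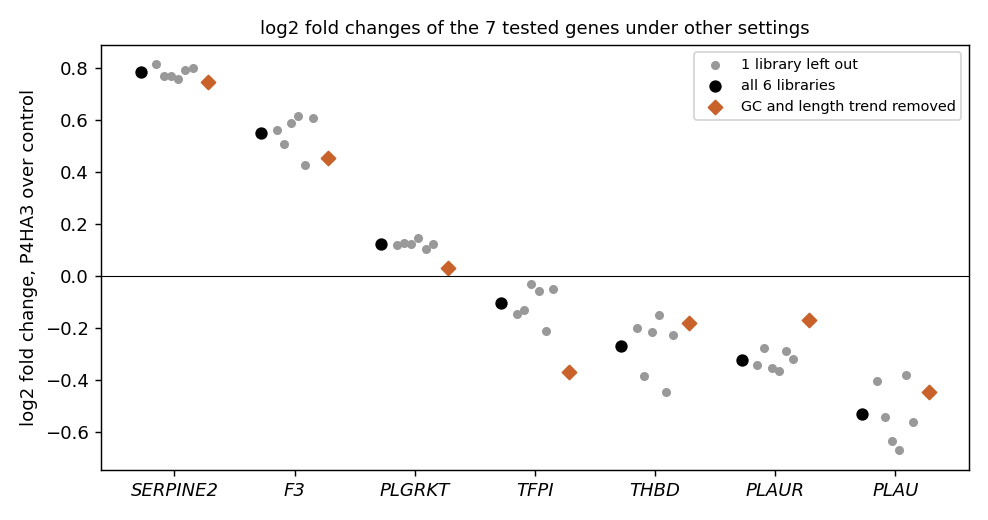
log2 fold change of P4HA3 over control (y axis) of the 7 tested genes with all 6 libraries (black), with 1 library left out in turn (grey) and with the GC and length trend removed (orange diamonds). SERPINE2 stays between 0.74 and 0.81, PLAUR moves from -0.33 to -0.17 and TFPI from -0.11 to -0.37 with the trend removed.

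A wider list of 50 other genes of plasminogen activation, binding and inhibition gave 30 tested genes, of which 5 were higher, 11 lower and 14 not called at an adjusted p under 0.05 over all genes. That is 16.7% higher and 36.7% lower, against 9.36% and 11.4% of all tested genes. The median log2 fold change of the 30 was -0.17, against 0.01 over all tested genes. Proteases that act on plasminogen or pro-urokinase included ST14, the membrane protease matriptase, which fell from 3.93 ± 0.325 to 1.77 ± 0.053 CPM (SD, n = 3 each; log2 fold change -1.15, edgeR adjusted p = 0.00124). F12, the contact-phase factor XII, fell from 10.7 ± 1.04 to 6.02 ± 0.826 CPM (SD, n = 3 each; log2 fold change -0.83, edgeR adjusted p = 0.00303). The only other tested gene of the 10 listed proteases, KLK10, was not called (log2 fold change 0.06). Thus both proteases that changed were lower, with non-overlapping groups. With the GC and length trend removed F12 was at -0.55 and still called.

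Inhibitors moved both ways, with 1 higher, 3 lower and 2 not called. Over all tested genes, 9.36% were higher and 11.4% lower. A2M, the broad protease inhibitor alpha-2-macroglobulin, rose from 1.11 ± 0.184 to 1.96 ± 0.175 CPM (SD, n = 3 each; edgeR adjusted p = 0.0161). SERPING1, the C1 inhibitor that also blocks factor XIIa, fell from 2.20 ± 0.0901 to 1.32 ± 0.027 CPM (SD, n = 3 each; edgeR adjusted p = 0.0126). The others that fell were SERPINF2 and SERPINB2 (alpha-2-antiplasmin and PAI-2, named after their values were seen), both under 1 CPM on average over the 6 libraries. SERPINF2 was not called with the GC and length trend removed. Of the inhibitors in the list, those that changed were therefore all at low levels.

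Among 14 proteins that bind or take up urokinase, tPA or uPAR, 1 of 10 tested genes was higher and 4 were lower. Of all tested genes, 9.36% were higher and 11.4% lower. The higher gene was SORL1, and the lower ones were VTN, LRP1, MRC2 and KRT18. KRT18 was also counted among the epithelial markers. VTN encodes vitronectin, a matrix ligand of uPAR. It was at 39.5, 38.5 and 36.0 CPM in control replicates 1, 2 and 3 and 29.2, 21.4 and 26.1 CPM in P4HA3 replicates 1, 2 and 3. The groups did not overlap, and VTN fell (log2 fold change -0.57, standard error 0.105, edgeR adjusted p = 0.00726). It was at -0.36 with the trend removed and still called. LRP1, the endocytic receptor that clears serpin-protease complexes, fell by 0.22 on the log2 scale (edgeR adjusted p = 0.0384) and was not called once the GC and length trend was removed. MRC2, also lower at -0.3, was at -0.1 in that fit and not called either. LRP8 (-0.26) was called as lower only in that fit.

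Of 5 tested plasminogen-binding genes, 2 were higher, against 9.36% of all tested genes. HSPA5, an ER chaperone also described as a cell-surface plasminogen binder, rose from 1500 ± 19.9 to 2090 ± 39.6 CPM (SD, n = 3 each; log2 fold change 0.48, edgeR adjusted p = 0.00127). HMGB1 was the other, at a log2 fold change of 0.28 that became 0.06 with the trend removed and was then not called. The annexin A2 complex (ANXA2 and S100A10), a docking site for plasminogen and tPA, had log2 fold changes of 0.19 and -0.12 that were not called, and the same held for ENO1 (-0.23). With the trend removed ANXA2 was called as higher (0.2). ANXA2, S100A10 and ENO1, named after their values were seen, were among the abundant transcripts, at 1450, 365 and 3950 CPM in control cells.

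Of 6 tested substrates of plasmin or urokinase, MMP3 (stromelysin-1, a matrix protease) was higher, at a log2 fold change of 1.43 but under 1 CPM in both groups. TGFB1, a growth factor released from its latent form by proteases, and CDCP1, a cleaved transmembrane protein, were lower. These counts of 1 higher and 2 lower stand beside 9.36% and 11.4% of all tested genes. TGFB1 moved from -0.41 to -0.16 on the log2 scale with the trend removed, and CDCP1 was at -0.28 in both fits. TGFB2 (-0.28) and LTBP1 (-0.31) were called as lower only with the trend removed.

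In a list of 29 other coagulation and thrombin genes, 13 were tested, 3 were higher, 1 was lower and 9 were not called, with a median log2 fold change of 0.09. The called share was 30.8%, against 20.8% of all tested genes, and rests on 4 genes. Of the circulating factors, F2, F5, F7, F9 and F10 had at most 2 counts in any library. F8 had 156 to 196 counts and FGB 26 to 46, and neither was called. F2R, the thrombin receptor PAR1, rose from 5.98 ± 0.416 to 8.39 ± 1.71 CPM (SD, n = 3 each; edgeR adjusted p = 0.0408). PROCR, the endothelial protein C receptor, fell from 27.9 ± 2.04 to 20.3 ± 2.34 CPM (SD, n = 3 each; edgeR adjusted p = 0.0126). LMAN1 and MCFD2, which form the ER cargo receptor of factors V and VIII, rose by log2 fold changes of 0.44 (edgeR adjusted p = 0.0161) and 0.21 (edgeR adjusted p = 0.0294). With the trend removed F2R and MCFD2 were not called, and LMAN1 was at 0.2. In that fit PROC (0.4) was called as higher, and PROS1 (-0.34) and VKORC1L1 (-0.15) as lower. None of the 4 genes called in the first fit was called without control replicate 1, without control replicate 2 or without P4HA3 replicate 3. Without these libraries, in the same order, 5, 4 and 5 genes of the list had an unadjusted p under 0.05 in edgeR. Over all genes, 781, 534 and 904 were called in these fits.

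**Figure D5:**
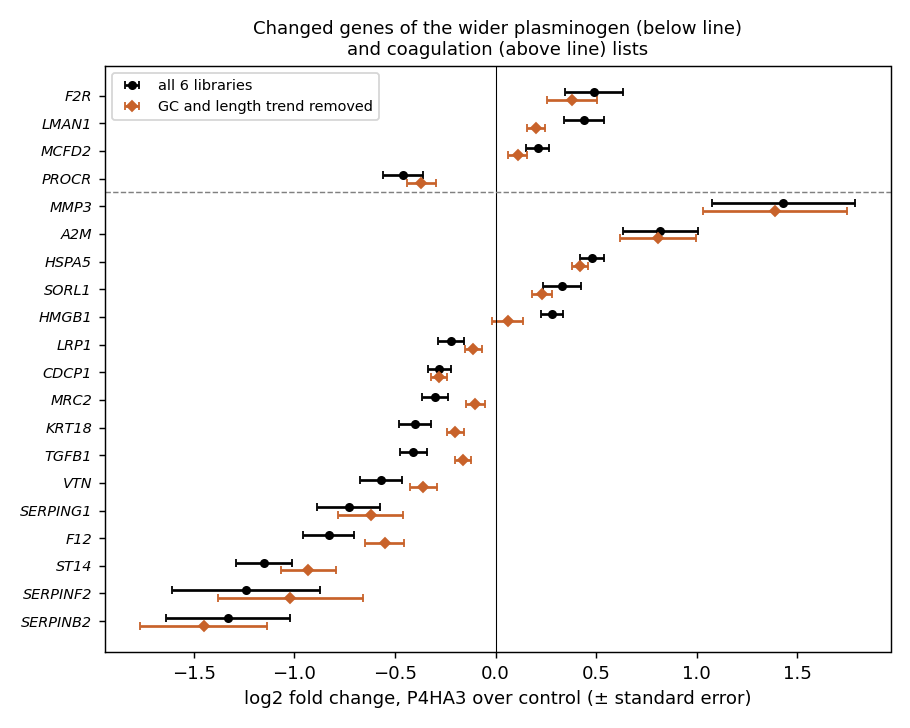
log2 fold change of P4HA3 over control (x axis, ± standard error) of the 16 called genes of the wider plasminogen list (below the dashed line) and the 4 called genes of the coagulation list (above it), with all 6 libraries (black circles) and with the GC and length trend removed (orange diamonds). ST14, F12, SERPING1 and VTN stay below 0 in both fits, and HMGB1 moves from 0.28 to 0.06.

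With the trend removed, 16 genes of the plasminogen list were again called (5 higher, 11 lower), 12 of them shared with the first fit and in the same direction, and 5 of the coagulation list (2 higher, 3 lower), of which 2 were shared. Without control replicate 2, 4 genes of the plasminogen list were called, and without control replicate 1 or P4HA3 replicate 3, 8 in each case. Over all genes, in the same order, 534 of 15380, 781 of 15331 and 904 of 15358 were called. With all 6 libraries 3147 of 15130 were called. Of 6 tested epithelial markers, 3 fell (CDH1, KRT18 and KRT17) and 3 were not called, namely KRT8 (log2 fold change -0.09), EPCAM (-0.07) and KRT19 (0.22). KRT17 was not called with the trend removed (-0.32 became -0.08), and KRT18 moved from -0.4 to -0.2. CDH1 was at 16.5 ± 0.211 CPM in control cells and 9.66 ± 0.821 CPM with P4HA3 (SD, n = 3 each). PECAM1 and CD14 also fell, by 1.03 and by 1.15 on the log2 scale. The smooth muscle marker TAGLN rose from 8.84 ± 0.441 to 17.2 ± 0.613 CPM (SD, n = 3 each). The part of these shifts in the results above was not tested.

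The genes whose pattern over the 6 libraries lay nearest to SERPINE2, by the root-mean-square distance of centred log2 CPM among 13369 genes, were ID2 (0.0854), TAGLN (0.0982) and ZNF469 (0.101). Those nearest to PLAUR were ABCA3 (0.0187), DNASE2 (0.0199) and FBXL19 (0.0214). ID2, TAGLN and ZNF469 had log2 fold changes of 0.67, 0.96 and 0.68, and ABCA3, DNASE2 and FBXL19 of -0.33, -0.36 and -0.29. The distances around PLAUR are smaller than those around SERPINE2.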

How the data were processed

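Poly-A RNA of 6 SiHa PR samples (3 control, 3 overexpressing P4HA3) was sequenced by the authors from strand-specific libraries, aligned to GRCh38 and counted per Ensembl gene with HTSeq. The methods name STAR and the submitters' processing notes name HISAT2 as the aligner; tool versions and the strand setting are not given in the sources used here. The deposited values are raw counts per gene, 1 column per library, without normalization. Genes were kept by filterByExpr (minimum count 10), normalised by TMM and compared in edgeR 4.0.16 (R 4.3.3) by the two-sided quasi-likelihood test, with Benjamini-Hochberg adjustment over 15130 genes and a threshold of 0.05. Standard errors are the unshrunken log2 fold change over the root of F. Symbols, positions, GC content and transcript length came from GENCODE release 44 (GRCh38; 60463 of 60664 identifiers matched), and promoter windows from RefSeq.

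The 9 genes and all lists were chosen with earlier results of these data known. Named genes were P4HA3, the 9 genes and, in each wider list, up to 6 called genes of at least 1 CPM with the largest absolute log2 fold changes. For the called genes with the highest and lowest change, the 3 nearest patterns were named. Any other gene of the wider or marker lists was named after its values were seen. The alternatives were DESeq2 1.42.0, RLE factors, no low-count filter, the replicate number as a block, removal of each library's GC and length trend (mgcv 1.9.3) and leaving out each library. The use of the 3 libraries low in ACTG2 was added after seeing the data. The fits were tested on simulated data. Within each group, every pair of libraries was farther apart than counting noise (chi-square per degree of freedom 5.15 to 17.6). The result for 1 gene of the wider plasminogen list is not reported here.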

Additional observations from a re-analysis of the deposited data

How the results depend on the processing

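SERPINE2, F3 and PLAUR were called with all 6 libraries in every fit, where 3 genes of the system were called or, with the trend removed, 4 (TFPI added at -0.37). With 1 library left out, 1 to 3 were called, and 3 with the libraries low in ACTG2. Over all genes 3147 were called (45% higher), between 534 and 5530 with 1 library left out, 6765 with the libraries low in ACTG2 (where the lone P4HA3 library is assumed to vary like the controls), and 2805 (57.1% higher) with the GC and length trend removed. The other plasminogen genes ranged from 4 to 19 and the other coagulation genes from 0 to 4 with 1 library left out. Same-numbered libraries did not pair throughout, with correlations of 0.42, -0.12 and 0.01 for replicates 1, 2 and 3. With the replicate number as a block, 4313 genes were called, 3 of the system, 19 other plasminogen and 4 other coagulation genes. With the block and the trend removal together these were 3800, 4, 16 and 7. In the libraries low in ACTG2, TFPI (0.165) and THBD (0.096) reversed. P4HA3 was called in every fit. The cause of these shifts was not tested. Depth limits PLAU, THBD, PLAT and TFPI2, whose counts are at most 67 per library.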
